A study of Mus musculus with 4 samples.

Results

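The regions described here are 631 CpG clusters that had low DNA methylation in iPSCs and in primary mdDA neurons, higher methylation in NESTIN-GFP precursors, and no such gain in iPSC-DA neurons. DNA methylation was measured by reduced representation bisulfite sequencing (RRBS), in which DNA is cut at CCGG by MspI, treated with bisulfite and sequenced, so that each read reports methylated or unmethylated calls at its CpGs. A cluster is a run of at least 10 positions on an autosome, each with at least 5 calls in all 4 libraries and less than 100 bp from its neighbour, and its level is the percent of methylated calls over all its calls. Of 14973 such clusters, 631 (4.21%) were below 20% in iPSCs and in mdDA neurons, at least 20 points above iPSCs in NESTIN-GFP precursors, and less than 20 points above iPSCs in iPSC-DA neurons. The rule used the levels of all 4 libraries, so these levels are given as a description and no test was made of them.

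The study set iPSC-derived dopaminergic neurons beside their counterparts in the embryo. The iPSC library came from Pitx3 Gfp/+ iPSCs, made from embryonic fibroblasts with retroviral Oct4, Klf4, Sox2 and cMyc. The iPSC-DA library came from Pitx3 Gfp/+ iPSCs differentiated for about a month on MS5 stroma, with Noggin and a TGF-β inhibitor and then SHH, FGF8 and BDNF, and sorted for PITX3-GFP, which marks mesodiencephalic dopaminergic neurons. The mdDA library came from sorted neurons of Pitx3 Gfp/+ embryos at E14.5. The fourth library came from Nestin Gfp/+ cells collected midway through the same differentiation, after neural induction. Its sample label calls them neurons, whereas the methods call them NESTIN-GFP-positive neural precursors, and the second name is used here. Expression data were not analysed here, so the cell types were not checked against marker genes.

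There was 1 library per group, hence no spread between replicates. NESTIN-GFP precursors carry a different reporter from the other 3 libraries, and an undifferentiated Nestin Gfp/+ iPSC library was not analysed here. Reporter line, differentiation stage and library therefore cannot be told apart in any value below. The shallowest was NESTIN-GFP, with 31419979 calls against 68545752 to 79648099 in the others. Intervals are 95% Wilson intervals of the level of a single cluster and cover counting error only, since PCR copies of one molecule are not independent.

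CpG methylation is written by the de novo methyltransferases DNMT3A and DNMT3B, copied at replication by DNMT1, and removed by passive dilution or by TET oxidation. CpG islands, the CpG-dense stretches at most promoters of broadly active genes, are usually kept free of it. NESTIN is an intermediate filament protein of neural stem and precursor cells, which lose it when they become neurons. Methylation gained at a CpG island is commonly stable through later cell divisions.

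Promoter sequences of 6 genes are shown because clusters chosen by the rule lie on them and because they show how differently such clusters are built. Each is the RefSeq promoter of GRCm38.p6, from 250 bases before to 50 after the start site, which is base 251. Each is printed 5′ to 3′ on the strand of the gene, and capitals mark the CpGs covered by the cluster. Positions in the files reach 197192264 on chromosome 1, beyond the end of that chromosome in GRCm38 and within that of NCBIM37 (mm9), the build used for the coordinates below. No genome of that build was used, so that each promoter was placed by matching the spacing of its CpGs to the listed positions. Hnrnpf lies at chr6:117867062-117867361 (+), Sdr39u1 at chr14:56519020-56519319 (-), Eprs at chr1:187186673-187186972 (+), Romo1 at chr2:155969719-155970018 (+), Hexa at chr9:59387097-59387396 (+) and Runx1 at chr16:92697525-92697824 (-).
Hnrnpf: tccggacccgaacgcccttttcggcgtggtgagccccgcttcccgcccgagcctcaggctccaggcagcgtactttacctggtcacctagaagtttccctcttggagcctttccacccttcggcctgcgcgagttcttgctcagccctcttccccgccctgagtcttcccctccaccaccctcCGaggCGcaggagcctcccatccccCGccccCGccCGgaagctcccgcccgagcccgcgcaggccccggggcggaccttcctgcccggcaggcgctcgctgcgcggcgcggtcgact
Sdr39u1: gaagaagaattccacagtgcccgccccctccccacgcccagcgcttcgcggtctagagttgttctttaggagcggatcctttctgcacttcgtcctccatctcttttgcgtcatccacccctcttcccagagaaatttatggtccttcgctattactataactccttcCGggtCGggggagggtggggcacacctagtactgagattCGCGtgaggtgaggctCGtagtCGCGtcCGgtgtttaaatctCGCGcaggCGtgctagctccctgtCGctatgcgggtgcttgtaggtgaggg
Eprs: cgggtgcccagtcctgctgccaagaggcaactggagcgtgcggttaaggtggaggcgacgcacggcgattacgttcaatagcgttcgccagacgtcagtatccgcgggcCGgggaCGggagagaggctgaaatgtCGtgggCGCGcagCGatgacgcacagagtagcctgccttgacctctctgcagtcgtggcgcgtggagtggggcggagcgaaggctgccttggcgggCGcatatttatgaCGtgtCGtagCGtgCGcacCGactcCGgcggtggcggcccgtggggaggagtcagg
Romo1: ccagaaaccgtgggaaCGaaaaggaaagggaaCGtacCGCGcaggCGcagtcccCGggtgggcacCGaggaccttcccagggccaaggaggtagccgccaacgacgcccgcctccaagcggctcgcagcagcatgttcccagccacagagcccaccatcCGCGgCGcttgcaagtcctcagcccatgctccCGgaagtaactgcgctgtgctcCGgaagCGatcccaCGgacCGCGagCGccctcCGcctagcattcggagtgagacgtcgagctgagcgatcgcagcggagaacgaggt
Hexa: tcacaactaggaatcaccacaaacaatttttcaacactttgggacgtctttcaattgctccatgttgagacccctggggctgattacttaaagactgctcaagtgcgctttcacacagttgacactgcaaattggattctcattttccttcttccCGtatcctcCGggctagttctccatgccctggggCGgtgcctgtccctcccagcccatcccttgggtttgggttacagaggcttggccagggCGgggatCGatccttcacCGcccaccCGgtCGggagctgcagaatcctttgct
Runx1: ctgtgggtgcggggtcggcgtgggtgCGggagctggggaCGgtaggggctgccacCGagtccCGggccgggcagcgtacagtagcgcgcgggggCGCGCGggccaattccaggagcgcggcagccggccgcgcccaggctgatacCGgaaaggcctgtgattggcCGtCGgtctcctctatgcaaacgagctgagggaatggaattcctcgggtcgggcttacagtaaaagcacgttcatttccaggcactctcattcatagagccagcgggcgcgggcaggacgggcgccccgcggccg

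The capitals show how much of each promoter the values rest on. In Hnrnpf the cluster covered 5 of 32 CpGs of this window, in Sdr39u1 12 of 22, in Eprs 13 of 36, in Romo1 18 of 33, in Hexa 8 of 10 and in Runx1 10 of 35. Hexa has few CpGs, and the others are CpG-dense.

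The 631 clusters had a median level of 4.75% in iPSCs, 33.98% in NESTIN-GFP precursors, 7.64% in iPSC-DA neurons and 6.66% in primary mdDA neurons. Their levels in NESTIN-GFP precursors had quartiles of 28.7% and 43.8% and ran from 22.1% to 100%. These were mostly partial levels. The level was from 20% to 40% in 425 clusters, from 40% to 60% in 148, from 60% to 80% in 51 and at least 80% in 7. Bulk calls cannot tell whether a partial level comes from some cells, some alleles or some CpGs of each molecule.

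Most of these clusters were close to the level of iPSCs in both kinds of neurons. The level in iPSC-DA neurons was within 5 points of iPSCs in 439 of 631 clusters (69.6%), and the level in mdDA neurons in 565 (89.5%). Among all clusters 5.97% were at least 20 points higher in mdDA neurons than in iPSCs, which the rule bars here. A remainder stood in between, with 110 clusters at least 10 points above iPSCs in iPSC-DA neurons. Even so, iPSC-DA neurons were above iPSCs in 559 clusters (88.6%) and mdDA neurons in 520 (82.4%). The rule bounds the levels of both kinds of neurons here, and these counts were not made over all clusters. They therefore cannot show a trait particular to the 631. Slightly higher medians than in iPSCs were also found elsewhere. Clusters low in iPSCs and mdDA neurons that gained in neither precursors nor iPSC-DA neurons had a median of 3.67% in iPSCs. Their medians were 4.76% in iPSC-DA neurons and 4.50% in primary mdDA neurons.

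**Figure D1:**
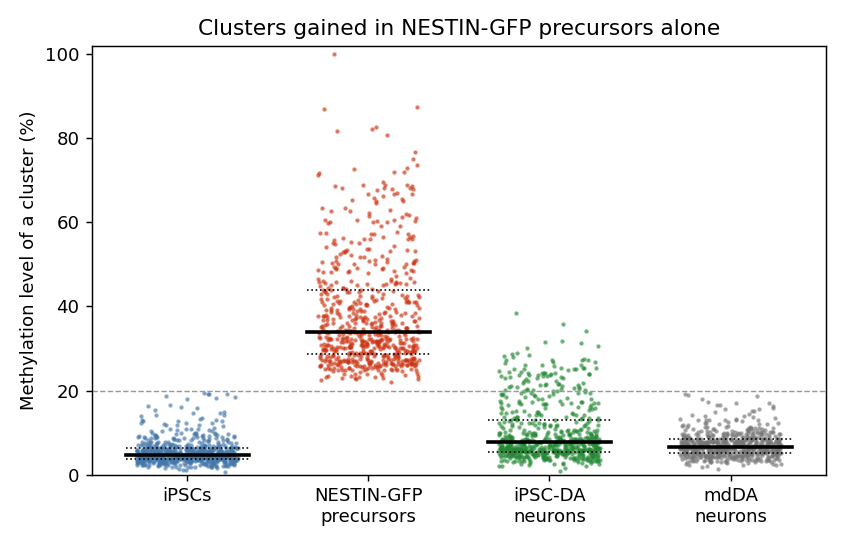
Methylation level (%) of each of the 631 clusters in the 4 libraries, with the median as a thick line, the quartiles as dotted lines and the 20% limit dashed. NESTIN-GFP precursors lie from 22.1% to 100%, while the medians of the other 3 libraries lie between 4.75% and 7.64%.

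In all, 2732 clusters (18.2% of 14973) were at least 20 points higher in NESTIN-GFP precursors than in iPSCs, and none was that much lower. A loss of that size needs at least 20% in iPSCs, where the upper quartile of all clusters was 5.45%. Most clusters could therefore not show it. Among clusters low in iPSCs and mdDA neurons, 1669 had an early gain, of at least 20 points in precursors. In 631 of these (37.8%) iPSC-DA neurons were less than 20 points above iPSCs, and in 1038 they were not. Under other settings this share ran from 26.0% to 50.1%. The distance between precursors and iPSC-DA neurons was at least 20 points in 478 of the 631 clusters (75.8%), against 4.68% of all clusters, a count that the rule favours. It was at least 30 points in 218 and at least 40 points in 97.

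Other sets of clusters low in iPSCs and mdDA neurons are used below for comparison. These are the 1038 clusters gained in both precursors and iPSC-DA neurons, 2945 gained in iPSC-DA neurons alone and 9071 gained in neither. Their median levels in NESTIN-GFP precursors were 35.7%, 12.3% and 3.87%. In precursors, the clusters gained there alone were about as methylated as those gained in both. The latter had a median of 43.0% in iPSC-DA neurons. The rule made these sets pass the same limit in precursors and the other sets fail it, so their medians partly follow from it. They are given as a description only.

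**Figure D2:**
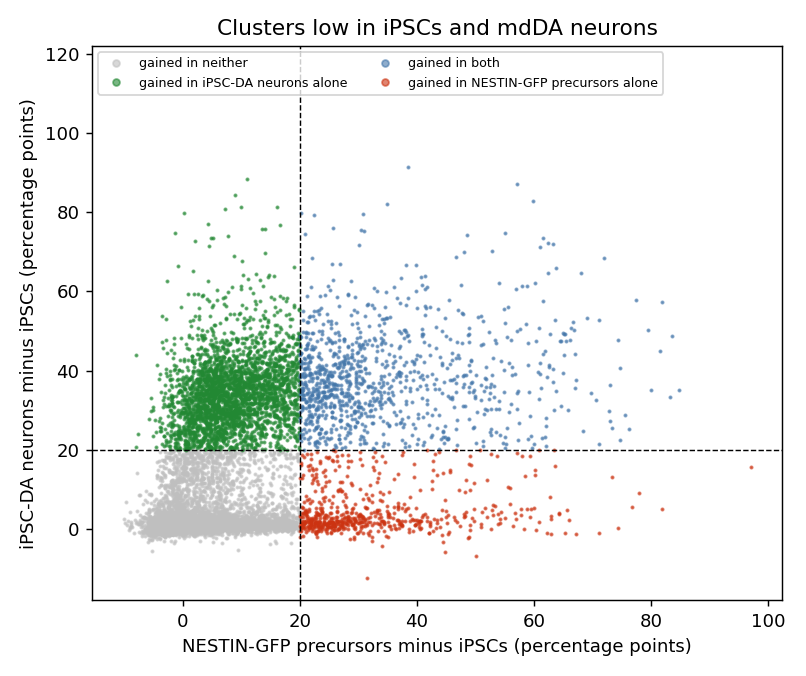
Gain over iPSCs (percentage points) in NESTIN-GFP precursors on the x axis and in iPSC-DA neurons on the y axis, 1 point for each of 13685 clusters low in iPSCs and mdDA neurons, with both 20-point limits dashed. The 631 clusters gained in precursors alone (red) lie mostly in a band near 0 on the y axis and thicken towards the limit on the x axis.

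Clusters near the limits of the rule were common. In 199 clusters (31.5%) the gain in precursors was under 25 points. The last cluster inside, at the promoter of Vwa5b2 (chr16:20590065-20590178), had 3.15% in iPSCs, 23.1% in precursors, 16.0% in iPSC-DA neurons and 4.92% in primary mdDA neurons. The first outside (chr5:115941890-115942177) had 4.78%, 24.8%, 7.59% and 8.12%. On the side of iPSC-DA neurons, the last inside (chr15:97597148-97597334) had 14.1% in iPSCs, 75% in precursors, 34.1% in iPSC-DA neurons and 8.74% in primary mdDA neurons, and the first outside (chr11:104469381-104469455) had 3.93%, 24.7%, 24.0% and 7.23%. Each pair lay on either side of its own limit, and the levels within a pair could still be far apart.

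The promoters with the widest margin between precursors and the other libraries belonged to genes of varied cellular roles. At Nktr, a cyclophilin-related gene of natural killer cells and other tissues, all 118 calls in precursors were methylated. The level there was 100% against 2.91% in iPSCs, 18.7% in iPSC-DA neurons and 9.47% in primary mdDA neurons. This cluster is 39 bp long, and its 118 calls may come from as few as 12 reads, which widens the interval to 75.8% to 100%. Here and below, the least number of reads is the largest sum of calls over positions at least 40 bp apart, the read length, since calls of one read are not independent.

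Hnrnpf, which encodes an RNA-binding protein of splicing, had 5.45% in iPSCs, 87.4% in precursors, 10.5% in iPSC-DA neurons and 6.02% in primary mdDA neurons. All 11 positions were raised by at least 20 points, and the interval in precursors was 70.2% to 95.4% on at least 27 reads. Its relative Hnrnph3 had 3.10%, 57.3%, 4.59% and 7.40% in the same order, again with all 11 positions raised. Each gene was low in 3 libraries and high in precursors.

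Sdr39u1, a short-chain dehydrogenase family gene, had the deepest coverage among the promoters named here by the size of their gain, with 506 calls in precursors on at least 99 reads. Its level was 4.24% in iPSCs, 65.2% in precursors (interval 55.4% to 73.9%), 6.03% in iPSC-DA neurons and 6.33% in primary mdDA neurons. Single positions in precursors ran from 28.1% to 87.9%, with a median of 62.3%. This cluster straddled the start site, as its capitals above show.

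Eprs encodes the glutamyl-prolyl-tRNA synthetase, which charges tRNAs for translation. It had 3.39% in iPSCs, 63.5% in precursors, 8.80% in iPSC-DA neurons and 5.89% in primary mdDA neurons, with all 13 positions raised. Hexa, the alpha subunit of the lysosomal enzyme beta-hexosaminidase, had 7.57%, 60.6%, 11.1% and 10.7%. Hexa was the low-CpG promoter of the 6 shown and did not stand apart in level.

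In further promoters, too, precursors were far above the other 3 libraries. Slc33a1, an acetyl-CoA transporter of the endoplasmic reticulum, had 4.13% in iPSCs, 55.2% in precursors, 5.28% in iPSC-DA neurons and 4.03% in primary mdDA neurons. Nol11, a nucleolar gene of ribosome production that shares its cluster with Gm39425, had 3.14%, 57.5%, 7.37% and 7.04%. The others named by the same rule (LOC102631992, Stox1, Dalrd3, A930033H14Rik, Tmem80, Mir1a-1hg and Dnlz) had from 53.8% (Dnlz) to 80.8% (LOC102631992) in precursors. Stox1 rested on 58 calls. Mir1a-1hg was the one already near the limit in iPSCs, with 19.2%.

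Among clusters with at least 20 positions and 200 calls in precursors, of which there were 103, the widest margin over the other libraries was at chr19:29122072-29122311. It had 5.64% in iPSCs, 71.4% in precursors, 10.5% in iPSC-DA neurons and 6.67% in primary mdDA neurons. Of its 25 positions, 24 were raised. A cluster gained in neither began 106 bp away and had 3.01% in precursors, so that the change of level lay within that short distance.

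The third widest margin was at chr2:155969618-155969964, a cluster that covered the start site of Nfs1 and ended just upstream of that of Romo1. Nfs1 encodes a cysteine desulfurase that supplies sulfur for iron-sulfur clusters, and Romo1 a small mitochondrial membrane protein. The level was 14.2% in iPSCs, 61.5% in precursors, 14.9% in iPSC-DA neurons and 6.92% in primary mdDA neurons, on 710 calls and at least 172 reads in precursors (interval 54.1% to 68.5%). Both sides of the middle of the cluster gained alike, by 46.9 and 47.3 points. It therefore had both depth and breadth, and it was placed by 51 matched positions in the Romo1 window.

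The other clusters named under the limits of 20 positions and 200 calls included Arpin and Gm31966, Mindy2, Glipr2, Rbm43 and Cdca5. A further 3 had no placed promoter. Over all of these, calls per position in precursors ran from 11.7 at chr1:193150188-193150509 to 27.2 at chr15:85476446-85476737. The median was 13.2 in the 631 clusters and 19.1 in all clusters, so not all of those named were deeply covered. Arpin inhibits the actin-nucleating Arp2/3 complex, Mindy2 is a deubiquitinase and Cdca5 (sororin) holds sister chromatids together. Mindy2 had 5.74% in iPSCs, 49.2% in precursors, 7.92% in iPSC-DA neurons and 7.20% in primary mdDA neurons, and all 21 positions were raised. Arpin had 4.74%, 48.1%, 4.94% and 4.90%, so that the 3 other libraries lay within 1 point of each other. Rbm43 had 42.5% and Cdca5 38.7% in precursors, with no other library above 7.41%.

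The 3 clusters without a placed promoter were at chr15:85476446-85476737, chr8:89408566-89408750 and chr1:193150188-193150509. Their levels in precursors were 63.5%, 43.6% and 53.4%. In iPSC-DA neurons they were 15.6%, 4.34% and 17.2%. The first had 195 reads at least and the second only 32, and the intervals were 56.6% to 70.0% and 28.04% to 60.5%.

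The gain was often uneven along a cluster. Of the 9466 positions in the 631 clusters, 59.8% were at least 20 points higher in precursors than in iPSCs. This share was 66.0% in clusters gained in both and 19.7% in all clusters. No methylated call in precursors was found at 20.1% of the 9466 positions, against 9.97% in clusters gained in both and 52.2% in all clusters. The gain reached all positions in 51 clusters and 50% or more of them in 458 (72.6%). With each cluster divided at its middle position, both sides gained at least 20 points in 273 clusters (43.3%), and in 121 (19.2%) one side gained less than 5 points. These counts of clusters were not made for the other sets, so unevenness is not shown to be particular to the 631.

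Runx1, a hematopoietic transcription factor, showed such a split. Its cluster (chr16:92697656-92698113) lay upstream of the placed start site and had 5.11% in iPSCs, 26.8% in precursors, 5.38% in iPSC-DA neurons and 6.52% in primary mdDA neurons, on 477 calls and 30 positions. The side near the start site gained 47.9 points and the far side 1.44. Of its 30 positions, 12 were raised and 12 had no methylated call in precursors. Another cluster of the same kind lay 1468 bp away, with 42.6% in precursors.

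Slc33a1 and Glipr2 were split in the same way. In Slc33a1 one side gained 76.7 points while the other dropped by 3.75. In Glipr2 the sides gained 16.8 and 58.4 points, with 45.1% in precursors over the whole cluster against 5.40%, 7.55% and 7.25% in iPSCs, in iPSC-DA and in mdDA neurons. Neighbouring positions often shared the same counts, as 3 positions in a row of Runx1 with 6 of 10 methylated calls each, and calls of one read are linked. Steps along a cluster therefore rest on few reads.

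**Figure D3:**
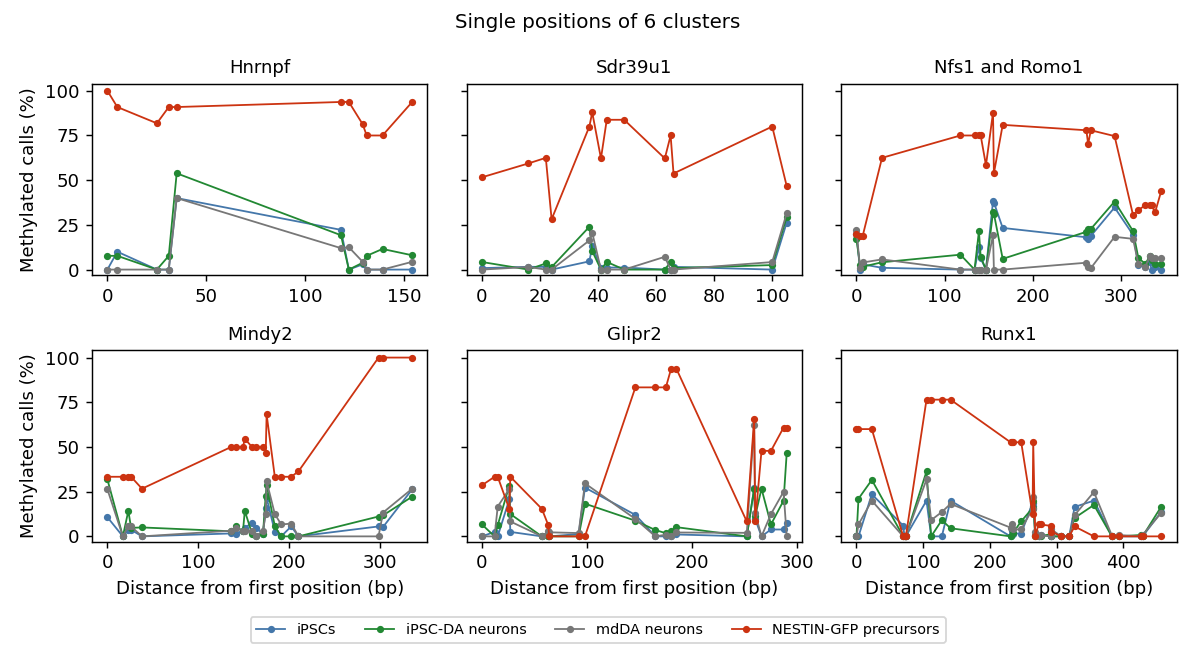
Percent of methylated calls at each covered position of 6 clusters against the distance (bp) from the first position, 1 line per library. NESTIN-GFP precursors (red) are at 75% or more along the whole Hnrnpf cluster. They run from 28.1% to 87.9% along Sdr39u1 and from 26.7% to 100% along Mindy2. Over the far side of Runx1 they fall to near 0, where the other libraries are also low.

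The 3 clusters with the most positions had low levels in precursors. The one at chr5:141305856-141306436, with 56 positions, had 2.54% in iPSCs, 22.6% in precursors, 3.33% in iPSC-DA neurons and 3.49% in primary mdDA neurons. Of its positions, 41 had no methylated call in precursors and 14 were raised. The clusters at chr15:101084463-101084855 and chr2:56966960-56967450, with 54 and 52 positions, had 26.6% and 26.3% in precursors and 16.9% and 12.1% in iPSC-DA neurons. None of the 3 was raised along its whole length.

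The 631 clusters were smaller, sparser and less deeply covered than the others. Their median was 13 positions over 166 bp, against 15 over 178 bp for clusters gained in both and 19 over 195 bp for all clusters. They had a median of 8.20 covered positions per 100 bp, against 9.11 in clusters gained in both, 11.5 in those gained in iPSC-DA neurons alone and 11.4 in those gained in neither. In the NESTIN-GFP library their median depth was 13.2 calls per position, against 16.4 in clusters gained in both and 19.1 in all clusters. Clusters gained in both thus shared part of this trait. The other libraries were also lower at the 631 than over all clusters. Calls per position were 70.8 against 97.1 in iPSCs, 79.2 against 111 in iPSC-DA neurons and 71.0 against 99.4 in mdDA neurons.

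Depth in the NESTIN-GFP library moved with the share of clusters that met the rule. Among clusters low in iPSCs and mdDA neurons, the share was 16.5% (69 of 417) at 5 to under 8 calls per position and 10.3% at 8 to under 12. It was 4.23% at 12 to under 20, 2.12% at 20 to under 40 and 2.83% at 40 or more. The share gained in both went the same way, from 12.9% in the shallowest bin to 5.85% at 20 to under 40, with 9.56% at 40 or more. The share gained in iPSC-DA neurons alone was 12.9% in the shallowest bin and 24.8% at 20 to under 40. With the number of positions, the share gained in precursors alone fell from 10.2% at 10 to 12 positions to 0.183% (4 of 2180) at 40 or more, and the share gained in both from 12.99% to 1.88%. Over all these low clusters, the median level in precursors was 13.04% in the shallowest bin and 2.96% at 40 calls per position or more. Of the 631, 339 (53.7%) had under 200 calls in precursors, against 17.97% of clusters gained in neither and 34.6% of clusters gained in both. A small cluster at low depth passes a 20-point limit more readily by counting error, and how much of the 631 this accounts for was not tested.

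**Figure D4:**
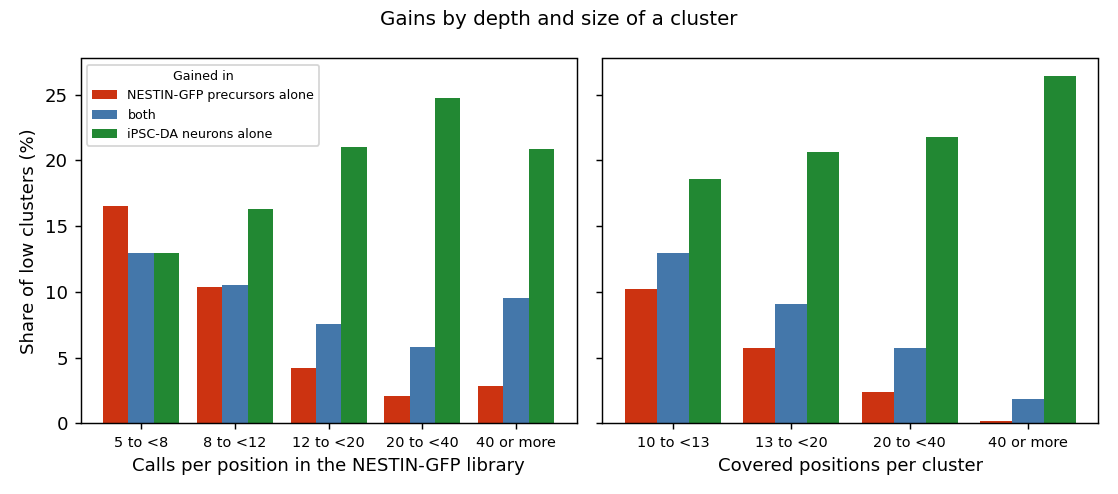
Share (%) of clusters low in iPSCs and mdDA neurons that gained 20 points in NESTIN-GFP precursors alone, in both or in iPSC-DA neurons alone, by calls per position in the NESTIN-GFP library (left) and by covered positions (right). The share gained in precursors alone (red) is 16.5% in the shallowest bin and 2.12% at 20 to under 40 calls.

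At least 20 calls per position in precursors, a limit chosen after seeing the data, left 125 of the 631 clusters, with a median of 38.0% in precursors and 10.6% in iPSC-DA neurons. A high median follows from the rule at any depth. In these deeper clusters 26.0% of early gains were in precursors alone, against 37.8% overall. A pair of clusters stood apart by their depth. At chr11:108873013-108873326, with 77533 calls, the levels were 10.8% in iPSCs, 40.5% in precursors, 14.8% in iPSC-DA neurons and 17.1% in primary mdDA neurons. At chr17:39984734-39984901, with 12233 calls, they were 13.6%, 47.3%, 21.0% and 18.7%. Whether reads from several copies of a sequence fall on these places was not tested.

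Outside the clusters, the flanks had levels in precursors near those of other flanks. Positions within 1000 bp of the 631 clusters and in no cluster numbered 2347. Their mean was 8.75% in iPSCs, 34.2% in precursors, 17.5% in iPSC-DA neurons and 14.2% in primary mdDA neurons. Flanks of all clusters had a mean of 34.1% in precursors, those of clusters gained in neither 26.1%, in iPSC-DA neurons alone 36.1% and in both 46.4%. In flanks of clusters gained in both, iPSC-DA neurons had 46.9%, far above the 17.5% beside clusters gained in precursors alone. The rule divides these sets by their gain in iPSC-DA neurons. Beside clusters gained in neither, precursors were also highest, with 7.24% in iPSCs, 14.0% in iPSC-DA neurons and 10.9% in primary mdDA neurons. A higher level in precursors was thus not particular to flanks of the 631. Beside clusters gained in both or in iPSC-DA neurons alone, iPSC-DA neurons were above precursors.

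Neighbouring clusters mostly had low levels in precursors. For 290 of the 631 clusters (46.0%) another cluster lay within 1 kb, and that neighbour was gained in neither in 83.8%, gained in precursors alone in 10% and gained in both in 3.45%. Over all clusters with such a neighbour, it was gained in neither in 64.98%, in precursors alone in 4.22%, in both in 6.46% and in iPSC-DA neurons alone in 21.7%. The last share was 1.38% for the clusters gained in precursors alone and 59.8% for those gained in both. The neighbours' median level in precursors was 4.56%, against 6.58% over all clusters.

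The clusters were spread over all autosomes. Among clusters low in iPSCs and mdDA neurons, the share gained in precursors alone was from 3.49% on chromosome 3 to 6.80% on chromosome 7. Of the early gains, 28.6% on chromosome 10 to 46.9% on chromosome 16 were in precursors alone. No chromosome held most of the 631, and chromosome 7 had 63.

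Promoters were tied to clusters by CpG spacing. Of 32851 RefSeq promoters, 13583 had a CCGG site and enough CpGs, and 7064 of these matched a single place on the autosomes. Of those, 6996 (99.0%) were on the chromosome the reference names, and these were used. A placed promoter overlapped 186 of the 631 clusters (29.5%), with 205 genes. The share was 30.7% in clusters gained in neither, 19.1% in those gained in iPSC-DA neurons alone and 15.03% in those gained in both. Since short clusters meet promoters less often, it was also counted over clusters of 10 to 19 positions, where it was 29.3%, 26.7%, 14.1% and 12.4% in the same order. The share for clusters gained in precursors alone was thus close to that for unmethylated clusters and above that for clusters methylated in iPSC-DA neurons.

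The level in precursors peaked near the start site. Positions around the start sites of promoters overlapping the 631 clusters, including positions outside the clusters, had a mean of 34.8% in precursors from 200 to 100 bp upstream and 31.7% over the first 100 bp downstream. It was 6.65% from 600 to 500 bp upstream and 11.2% from 500 to 600 bp downstream. The other libraries were flat, with 3.74% to 5.18% in iPSCs and 5.70% to 9.81% in iPSC-DA neurons. Around promoters of clusters gained in neither, precursors had 6.67% to 12.1%, lowest at the start site. A peak in precursors and none elsewhere where the cluster lies follow from the choice of clusters. The width of the peak also depends on the length of the clusters (median 166 bp) and on their overlap with the promoter window. The profile is therefore a description only.

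**Figure D5:**
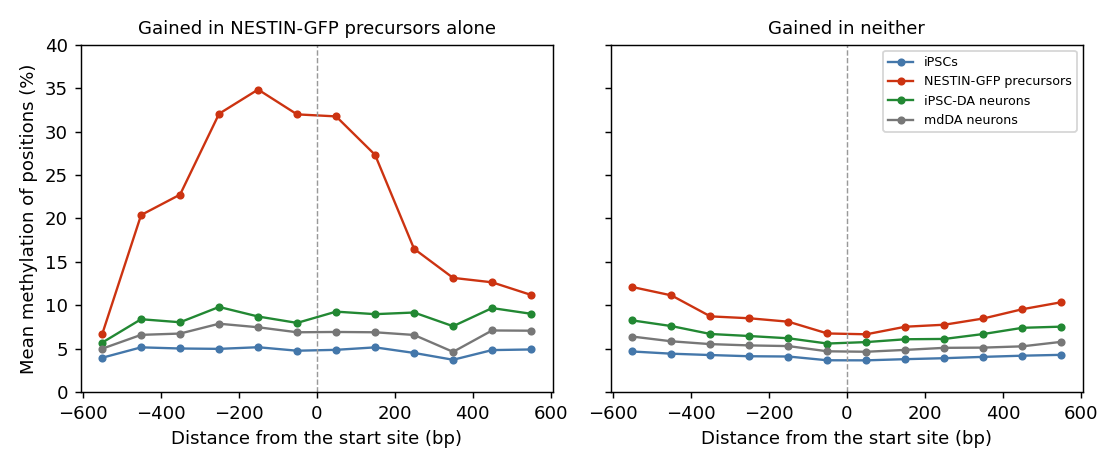
Mean methylation (%) of covered positions in bins of 100 bp by distance from the start site (bp, upstream negative), for promoters overlapping the 631 clusters (left) and clusters gained in neither (right). NESTIN-GFP precursors reach 34.8% upstream of the start site on the left and stay between 6.67% and 12.1% on the right.

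The sequences of these promoters were GC-rich. The 218 RefSeq promoters overlapping the 631 clusters had a median of 65.8% G and C and 27 CpGs in 300 bases, against 67.7% and 29 for clusters gained in neither, 68% and 25 for those gained in both, 70% and 30 for those gained in iPSC-DA neurons alone and 52.7% and 7 for all 32851 promoters. The letters TTCCG, the core bound by ETS factors, stood on either strand in 61.5% of them. The share was 59.1% for clusters gained in neither, 33.9% for those gained in both, 32.0% for those gained in iPSC-DA neurons alone and 29.9% for all promoters. TTCCG can overlap a CCGG site, since it ends in CCG, and every placed promoter has such a site. Of all 32851 promoters 52.8% have one. Placement also needed at least 8 CpGs and at least 15 matched positions. All 32851 promoters include those that could not be placed, so differences from them follow at least in part from placement.

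The GC box, GGGCGG, was in 80.3% of the 218 promoters, 82.0% of those of clusters gained in neither, 81.7% of those gained in iPSC-DA neurons alone, 70.8% of those gained in both and 35.7% of all promoters. The TATA box, TATAAA, was in 5.50%, 3.06%, 4.69%, 3.57% and 13.6% in the same order, and both were searched on both strands. The same limit of placement holds for these shares against all promoters. These matches describe the letters in the window and do not show binding.

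Few listed genes could be placed at a cluster. These were 5 of 23 genes of the midbrain and dopaminergic list, 1 of 20 of the neural progenitor list, 1 of 18 of the forebrain list and 4 of 21 of the neuronal differentiation list. Of 3692 clusters low in iPSCs and mdDA neurons with a placed promoter, 186 (5.04%) were gained in precursors alone, and at that share these lists are too small to show a difference. All 6 clusters at promoters of midbrain and dopaminergic genes fell outside, with 5 gained in iPSC-DA neurons alone and 1 gained in both. En1, a midbrain homeobox gene, had 12.0% in precursors and 32.9% in iPSC-DA neurons, and the dopamine receptor gene Drd2 had 10.4% and 36.4%. Wnt1, a ligand that patterns the midbrain, was the one gained in both, with 34.1% and 39.3%.

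None of the 4 clusters of neuronal differentiation genes (Elavl3, Elavl4, Isl1 and Phox2a) and none of the 5 Hox clusters was gained in precursors alone. The single clusters of the neural progenitor list (Sox21) and the forebrain list (Lhx2) were gained in iPSC-DA neurons alone. Of 3 clusters of mesoderm, endoderm and fibroblast genes, Runx1 was gained in precursors alone, and Foxc1 and Msx1 in neither. No cluster was placed for the lists of glia, housekeeping genes and clustered protocadherins.

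Germline genes gave a contrast in which precursors and both kinds of neurons were all far above iPSCs. At Dazl, Ddx4, Hormad1 and Mael, whose promoters are methylated in most somatic cells, the level was 7.61% to 12.2% in iPSCs, 49.2% to 89.9% in precursors, 65.8% to 89.3% in iPSC-DA neurons and 47.9% to 93.6% in mdDA neurons. These clusters are outside the rule because mdDA neurons were high. At the 631 clusters mdDA neurons were at most 19.3%.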

How the data were processed

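RRBS was made of 1 library for each of the 4 groups. Per the submitters' processing notes, reads were handled with FastQC, Trim Galore 0.3.5 and Bismark 0.10.1, and the methods also name Bareback. The authors deposited counts of methylated and unmethylated calls for each position, not normalized and with no coverage minimum, beside the percent of methylated calls. Each strand of a CpG is a position of its own. The genome build is not given in the sources used here, and NCBIM37 was inferred from the highest positions. Incomplete bisulfite conversion and PCR copies are included in the calls.

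Clusters and levels were computed in Python 3.11.15 (numpy 2.4.6, pandas 2.3.3, numba 0.67.0, scipy 1.17.1) from 619480 autosomal positions. The clusters and gene lists were chosen with earlier results of these data known. No test was made, since the rule used all 4 libraries. Named clusters were the 10 with the widest margin of precursors over the other libraries among those with at least 20 positions and 200 calls, the 3 with the most positions, the clusters nearest each limit, every cluster at a listed gene and the 15 further placed promoters with the widest margin. Promoters were placed where all listed positions of a window fell on its CpGs, with at least 15 matched positions, at least 8 CpGs and a CCGG site, at 1 place on the autosomes. Of 6968 neighbouring placements, 6965 were in reference order. The code was tested on simulated data. Depth of the libraries and of the clusters that results turn on is given in the report. Alternative settings for coverage, cluster size, level and limits were computed.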

Additional observations from a re-analysis of the deposited data

How the results depend on the processing

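Under 13 alternatives, 1 of them chosen after seeing the data, 41 of 93 values stayed close to the main value. Close meant inside the interval of the main value, or for counts a move of less than 1.5 times. These intervals take clusters or positions as independent units, so they are not counting errors of calls. The others moved as follows, relative to 631 clusters. A minimum of 10 calls gave 256 clusters, with medians of 4.54% in iPSCs, 31.8% in precursors and 6.38% in mdDA neurons, 28.7% of early gains, 66.4% at least 20 points lower in iPSC-DA neurons than in precursors, 61.1% of positions raised and 18.6 calls per position. A minimum of 3 calls gave medians of 34.9% in precursors and 6.96% in mdDA neurons and 41.2% of early gains. Merged strands gave 4.55% in iPSCs. At least 20 positions gave 116 clusters, medians of 4.29%, 29.5%, 6.40% and 5.71% in iPSCs, precursors, iPSC-DA and mdDA neurons, 27.04% of early gains, 69.8% at least 20 points lower in iPSC-DA neurons, and 8.53 positions per 100 bp. Gaps under 50 bp gave 4.36% in iPSCs, 6.92% in iPSC-DA and 5.95% in mdDA neurons and 33.9% of early gains. Unweighted means gave 7.27% in mdDA neurons. Limits of 30 points gave 406 clusters, medians of 5.64%, 46.6%, 12.9% and 7.49%, 50.1% of early gains and 79.8% at least 20 points lower in iPSC-DA neurons. An iPSC-DA gain under 10 points gave 4.52% in iPSCs, 6.63% in iPSC-DA neurons, 31.2% of early gains and 83.9% at least 20 points lower. Thinning to the NESTIN-GFP depth gave 8.49% in iPSC-DA and 7.30% in mdDA neurons and 71.9% at least 20 points lower. Flanks of 500 bp gave 14.9% in iPSC-DA and 12.1% in mdDA neurons, and flanks of 2 kb gave 10.5%, 36.4%, 20.6% and 16.8% in iPSCs, precursors, iPSC-DA and mdDA neurons. At least 20 NESTIN-GFP calls per position, the alternative chosen after seeing the data, gave 125 clusters, medians of 5.62%, 38.0%, 10.6% and 7.09%, 26.0% of early gains and 68.7% of positions raised. Fewer clusters follow by construction from limits that leave out clusters or positions, and the cause of the other shifts was not tested. No paired analysis was possible because each group had 1 library, and no library could be left out. Depth in the NESTIN-GFP library limits most single clusters, since 339 of the 631 had under 200 calls there.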

Other observations

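Gene families at the clusters gained in precursors alone were looked up after their values were seen. Of 205 genes with a placed promoter there, 5 had symbols of translation factors or ribosomal proteins (Eef1b2, Eif2b4, Eif3d, Mrpl14 and Mrpl17), and the last 2 belong to the mitochondrial ribosome. By the same match of symbols, which also takes in regulators of these factors, there were 54 of 2899 genes (1.86%) at clusters gained in neither, against 2.44% here, and 0 of 568 and 0 of 159 at those gained in iPSC-DA neurons alone and in both. Eef1b2, an elongation factor subunit, had 5.25% in iPSCs, 45.8% in precursors, 7.32% in iPSC-DA neurons and 7.14% in primary mdDA neurons. Symbols of developmental transcription factor families, some of them antisense RNAs such as Lhx1os, were 27 of 568 (4.75%) at clusters gained in iPSC-DA neurons alone, 3 of 159 (1.89%) at those gained in both and 9 of 2899 (0.310%) at those gained in neither. At clusters gained in precursors alone 2 of 205 symbols matched (0.976%), Foxa3 and Gatad2a, and the second is a chromatin repressor subunit and not a GATA factor.

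A few further genes were picked for their roles, also after their values were seen. Notch2, a receptor of neural precursors, had 8.32% in iPSCs, 37.8% in precursors, 8.84% in iPSC-DA neurons and 9.62% in primary mdDA neurons on 82 calls in precursors, with the gain on 1 side of the cluster. Epha7, an axon guidance receptor, had 6.83%, 50.4%, 20.4% and 7.45%. Foxa3, a forkhead factor of endoderm, had 8.56%, 45.3%, 14.3% and 16.5%. In iPSC-DA neurons Epha7 was thus above iPSCs, while Notch2 was near them.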
